A study of Mus musculus with 23 samples.

Results

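Collagens and their companions in the extracellular matrix were measured as messenger RNA in B16F10 mouse melanoma, and 39 genes for collagens, matrix glycoproteins, proteoglycans, crosslinking enzymes, matrix proteases, protease inhibitors and fibroblast receptors and markers are described here. They were chosen by gene symbol, and each of the 39 was found once among the 47643 genes of the table. Their levels were read in all 23 libraries, and the question was which matrix genes the melanoma cells expressed themselves and which were seen only while the rest of the tumor was present.

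Collagen chains wind into triple helices that are secreted and assembled into fibrils (types I, III and V), into the sheet of the basement membrane (type IV) or into fine beaded filaments (type VI). Lysyl oxidases crosslink them, matrix metalloproteinases cleave them and the TIMP proteins inhibit those proteases. In most tumors fibroblasts are the main source of fibrillar collagen, while melanocytes and melanoma cells are known to make some matrix proteins of their own, among them SPARC and fibronectin.

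The study asked how NR2F6, an orphan nuclear receptor, acts within melanoma cells. B16F10 cells received Cas9 protein with a Cy3-labeled guide RNA, were sorted for Cy3, and were grown in C57BL/6 mice or kept in culture. There were 3 sample types, bulk tumor, sorted tumor cell and cultured cell, each with 2 control libraries (genotype WT), 2 of guide sg492 and 2 of guide sg495 (both genotype NR2F6 KO). A separate set, also labeled B16F10 and WT, held 2 IgG control and 3 anti-PD1 libraries, and its labels give no tissue. Sorted tumor cells had been digested with collagenase D and then depleted of stromal cells on magnetic beads. Nothing in the labels says that the libraries of a group came from separate animals or cultures, so the p-values below measure the spread between libraries.

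Nr2f6 itself was lower in the sg495 libraries of all 3 sample types than in their controls (15.8 and 17.2 TPM against 25.2 and 25.8 in bulk tumors). It lies on chromosome 8, whose genes had a negative median log2 difference of sg495 to control in all 3 sample types, as given below. TPM, the unit of all levels here, is a gene's share of the transcripts of its library after scaling for transcript length. In the sorted libraries labeled sg492 the Nr2f6 RNA was not lower (19.8 and 25.7 TPM against 20.3 and 17.7), so that label is used here as a name only. With sg492 it was at 22.3 and 23.3 TPM in bulk tumors, and at 26.55 and 31.5 TPM in cultured cells against 31.9 and 32.9 in controls. The paper checked the knockout by immunoblotting and by sequencing the targeted regions, which RNA levels do not replace. All 9 melanocyte markers were at 1 TPM or more in the bulk, sorted and cultured libraries. The summed level of 12 leukocyte markers was 471 to 1062 TPM in bulk tumors, 4.92 to 14.1 TPM in sorted cells and 2.67 to 6.68 TPM in cultured cells. In sorted cells 8 of 9 endothelial markers and 9 of 13 fibroblast markers outside the 39 genes had means under 1 TPM. Pdpn, Gsn, Serpinf1 and Fgf7 were the fibroblast markers at 1 TPM or more there, and all of these but Fgf7 were also at 1 TPM or more in cultured cells. The summed fibroblast markers were 233 to 296 TPM in bulk tumors, 120 to 168 TPM in sorted cells and 79.6 to 115 TPM in cultured cells. The 8 mural markers summed to 131 to 170, 77.2 to 110 and 68.1 to 114 TPM in the same order. Serpinf1 and the mural marker Mcam were at means of 69.6 and 77.8 TPM in sorted cells. By these markers the sorted and cultured libraries were melanoma cells with low levels of most, but not all, marker genes of other cell types.

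The promoters of 4 genes are shown, 2 low in sorted cells against bulk tumors and 2 expressed in both sorted and cultured cells. Each run is the 250 bases upstream of a RefSeq start on the GRCm38.p6 build, with TATAAA or CCAAT, on either strand, in capitals (CCAAT on the other strand reads ATTGG). Col3a1 (chr1:45311288-45311537, plus strand) and Postn (chr3:54360857-54361106, plus strand) are shown as genes high in bulk tumors and low in sorted cells, and these windows hold TATAAA. A second RefSeq window of Postn, not shown, does not. Postn, unlike Col3a1, was also expressed in cultured cells (3.75 to 8.35 TPM). Mmp14 (chr14:54431348-54431597, plus strand) and Timp1 (chrX:20869916-20870165, plus strand) are shown as genes that the sorted and cultured melanoma cells expressed, and both hold CCAAT. Timp1 too was lower in sorted cells than in bulk tumors (17.9 to 20.5 against 52.9 to 65.7 TPM).
Col3a1: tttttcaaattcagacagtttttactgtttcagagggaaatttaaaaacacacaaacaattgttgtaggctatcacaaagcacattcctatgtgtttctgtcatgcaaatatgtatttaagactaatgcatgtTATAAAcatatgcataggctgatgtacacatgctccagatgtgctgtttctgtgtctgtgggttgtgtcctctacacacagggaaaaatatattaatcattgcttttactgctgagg
Postn: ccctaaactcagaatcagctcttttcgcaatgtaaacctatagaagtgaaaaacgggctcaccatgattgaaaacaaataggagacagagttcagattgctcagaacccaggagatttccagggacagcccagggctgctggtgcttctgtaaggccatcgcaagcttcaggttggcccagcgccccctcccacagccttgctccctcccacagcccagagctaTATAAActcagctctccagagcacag
Mmp14: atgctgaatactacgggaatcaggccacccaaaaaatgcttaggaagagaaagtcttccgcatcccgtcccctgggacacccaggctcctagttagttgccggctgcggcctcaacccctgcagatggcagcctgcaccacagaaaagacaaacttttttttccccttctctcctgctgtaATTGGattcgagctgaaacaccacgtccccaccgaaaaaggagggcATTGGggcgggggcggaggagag
Timp1: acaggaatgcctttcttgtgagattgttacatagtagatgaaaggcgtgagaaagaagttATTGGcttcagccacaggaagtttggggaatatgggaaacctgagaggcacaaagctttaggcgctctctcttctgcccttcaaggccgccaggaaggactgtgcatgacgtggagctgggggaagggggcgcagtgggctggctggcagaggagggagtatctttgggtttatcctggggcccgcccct

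Of the 39 genes 25 had such a window among the 32817 windows of the RefSeq table. TATAAA was in 5 of the 25 (Col3a1, Mmp3, Postn, Thbs2 and Tnc) and in 12.4% of all windows. CCAAT was in 8 of the 25 (Col18a1, Col1a2, Col4a1, Col4a2, Mmp14, Thbs2, Timp1 and Timp2) and in 33.8% of all windows. The AP-1 motif TGANTCA, searched on both strands, was in Col6a1 and Mmp3 and in 6.75% of all windows. A gene with a second window was counted if either held the motif, while the shares over all windows count each window. Thbs2, which was low in sorted cells, holds both of the first motifs. The 4 windows shown were picked for their motif, and a match of these letters is a description of the window and was not related to binding of any factor.

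The genes fell into 3 classes by their mean level, taking 1 TPM as the limit. Of the 39 genes 14 were at or above 1 TPM in both sorted and cultured melanoma cells and are called tumor-cell matrix genes. A further 20 reached 1 TPM in bulk tumors but in neither of the other sample types and are called lost on sorting. The remaining 5, Col1a1, Col1a2, Col18a1, Postn and Thbs1, passed the limit in bulk tumors and in 1 of the other sample types and are called mixed. Sorted cells kept a median of 49.1% of the bulk level for the tumor-cell matrix genes (15.0 to 117%), 1.22% for the mixed genes (0.718 to 9.19%) and 0.315% for the genes lost on sorting (0 to 11.1%). The classes were set by these same means, so this contrast and the class sums below follow in part from the limit. Nearest the limit in sorted cells were Col1a1 and Postn below it, at means of 0.868 and 0.823 TPM, and Col18a1 above it at 1.29 TPM. With the control libraries alone 36 of the 39 kept their class, while Thbs1, Col1a2 and Col1a1 moved to the class lost on sorting.

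**Figure D1:**
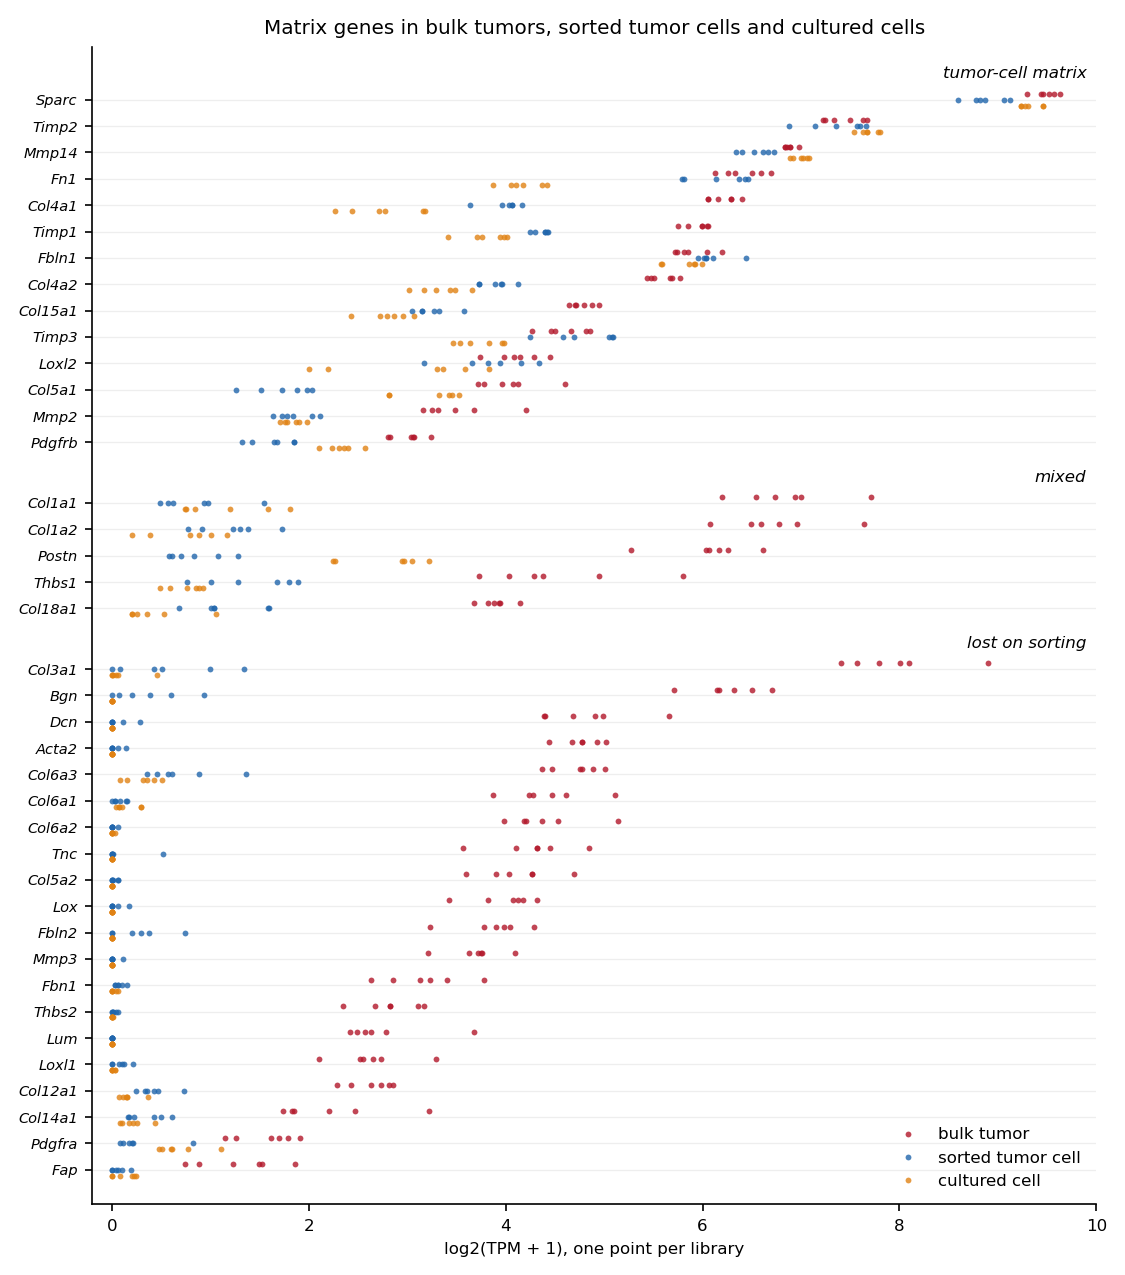
Level of each of the 39 genes on a log2(TPM + 1) axis, 1 point per library, in bulk tumors (red), sorted tumor cells (blue) and cultured cells (orange), with the genes ordered by class. The 20 genes lost on sorting lie at or near 0 in both sorted and cultured cells, while the 14 tumor-cell matrix genes have means of 1 TPM or more in all 3 sample types.

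The 39 genes together made up 1860 to 2993 TPM in bulk tumors, 811 to 1089 TPM in sorted cells and 1107 to 1161 TPM in cultured cells. Sparc alone was 57.0% of that sum in cultured cells and 30.5% in bulk tumors. The genes lost on sorting summed to 393 to 910 TPM in bulk tumors, to 1.24 to 4.93 TPM in sorted cells and to 0.970 to 2.03 TPM in cultured cells. In bulk samples, fewer cells of a type and less RNA per cell cannot be told apart.

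Sorted cells had lower levels than bulk tumors for most of the 39 genes. Only the sorted cells had been digested and bead-depleted, so loss of other cells and a change of RNA during these steps cannot be told apart. Of the 37 that passed a filter of a mean of 1 TPM over the 18 libraries, 31 were lower and 0 higher by limma (adjusted p under 0.05 and a fold of at least 1.5), against 9.26% lower and 4.31% higher of all 13152 genes tested. The median log2 difference was -2.76 for the 37 genes and -0.05 for all genes. That filter is passed by genes high in bulk tumors alone. In a fit without it 33 of all 39 genes were lower, against 7.01% of 27657 genes. The genes added to that background had means under 1 TPM, where a fold of 1.5 is hard to reach on the log2(TPM + 1) scale. The repeat therefore does not remove the effect of the filter. For 34 of the 39 every bulk library lay above every sorted library, against 14.2% of genes tested. Over all genes the fit called 567 higher and 1218 lower, and quantile normalization called 1384 and 946. All differences below are on the log2(TPM + 1) scale, which understates the change of low genes.

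Of the 37 genes tested, Col3a1 and Col1a1 of the fibrillar collagens fell the most. Col3a1, the chain of the type III homotrimer, was at 169, 238 and 478 TPM (lowest, median and highest) in the 6 bulk libraries, at 0, 0.380 and 1.54 TPM in sorted cells and at 0 to 0.370 TPM in cultured cells. Its difference of -7.40 (SE 0.21, limma adjusted p = 1.55e-11) was the lowest of the 37. Col1a1, the alpha 1 chain of type I collagen, was at 72.2, 114 and 208 TPM in bulk tumors and at 0.400, 0.725 and 1.92 TPM in sorted cells, a difference of -6.00 (SE 0.15, limma adjusted p = 7.12e-12). The bulk and sorted libraries did not overlap for either gene. Col1a2, its alpha 2 partner, ran from 66.6 to 198 TPM in bulk tumors and from 0.710 to 2.31 TPM in sorted cells (-5.53). The ratio of Col1a1 to Col1a2 stayed between 1.02 and 1.12 in the 6 bulk libraries.

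The chains of type V collagen, a minor component of collagen fibrils, differed from each other. Col5a2 was at 11.1 to 24.9 TPM in bulk tumors, at 0 to 0.0400 TPM in sorted cells and listed at 0 in every cultured library. Col5a1 was at 12.2 to 23.4 TPM in bulk tumors, at 1.40 to 3.10 TPM in sorted cells and at 6.05 to 10.5 TPM in cultured cells. In bulk tumors the levels of Col5a1 and Col5a2 were close, with a ratio of 0.798 to 1.10, while cultured melanoma cells expressed Col5a1 with Col5a2 at 0. From bulk tumors to sorted cells Col5a1 differed by -2.31 (SE 0.10) and Col5a2 by -4.10.

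Type VI collagen and the fibril-associated collagens XII and XIV were also low outside bulk tumors. Col6a1 and Col6a2 were at 13.6 to 33.6 and 14.8 to 34.3 TPM in bulk tumors, with a ratio of 0.919 to 1.08, and at no more than 0.110 and 0.0400 TPM in any sorted library. Col6a3 was at 19.7 to 31.1 TPM in bulk tumors and 0.280 to 1.57 TPM in sorted cells (-4.01). Col12a1 and Col14a1 differed by -2.20 and -1.87, from bulk medians of 5.43 and 3.11 TPM to sorted medians of 0.310 and 0.255 TPM. No sorted library reached the lowest bulk library for any of these 5 genes.

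The type IV collagen genes of the basement membrane were expressed in sorted and cultured melanoma cells and were higher in bulk tumors. Col4a1, which with Col4a2 makes the common type IV heterotrimer, was at 65.5, 73.6 and 83.2 TPM in bulk tumors, at 11.4, 15.5 and 17.0 TPM in sorted cells and at 3.81, 5.70 and 8.07 TPM in cultured cells. Col4a2 was at 42.2, 47.1 and 53.8 TPM, at 12.3, 14.1 and 16.5 TPM and at 7.08, 9.28 and 11.6 TPM in the same order. Both fell from bulk to sorted cells, with log2 differences of -2.22 and -1.69 (limma adjusted p = 2.79e-11 and 6.1e-10) and no overlap between bulk and sorted libraries. The ratio of Col4a1 to Col4a2 was 1.51 to 1.58 in bulk tumors, 0.825 to 1.28 in sorted cells and 0.502 to 0.783 in cultured cells, so that its ranges did not overlap between the 3 sample types. The starts of these genes lie 21 bases apart on opposite strands of chromosome 8.

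Collagens XV and XVIII, which carry glycosaminoglycan chains at basement membranes, also fell from bulk to sorted cells. Col15a1 was at 24.0 to 30.0 TPM in bulk tumors, 7.29 to 10.9 TPM in sorted cells and 4.38 to 7.37 TPM in cultured cells (-1.53 from bulk to sorted, limma adjusted p = 5.35e-08). Col18a1 was at 11.8 to 16.7 TPM in bulk tumors, 0.600 to 2.02 TPM in sorted cells and 0.150 to 1.08 TPM in cultured cells (-2.74). Slc19a1 overlaps Col18a1 on the opposite strand at a mean of 14.0 TPM, and whether reads were counted by strand is not given in the sources used here, so the low values of Col18a1 are uncertain.

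The 3 small leucine-rich proteoglycan genes of the set, whose products bind collagen fibrils, were almost absent from sorted and cultured melanoma cells. Biglycan (Bgn) was at 51.3, 74.9 and 104 TPM in bulk tumors, at 0, 0.230 and 0.910 TPM in sorted cells and listed at 0 in every cultured library (-5.89 from bulk to sorted, SE 0.14, limma adjusted p = 4.49e-12). Decorin (Dcn) was at 20.0, 26.8 and 49.5 TPM in bulk tumors and at no more than 0.220 TPM in sorted cells (-4.77). Lumican (Lum) was at 4.33, 5.07 and 11.8 TPM in bulk tumors and listed at 0 in every sorted and cultured library. All 3 were thus detected in every bulk library and in none of the cultured libraries.

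Among the glycoprotein genes, Sparc, Fn1 and Fbln1 kept 65.8%, 84.6% and 115% of their mean bulk level in sorted cells. Sparc, a secreted collagen-binding protein, was at 626, 716 and 794 TPM in bulk tumors, 384, 459 and 557 TPM after sorting and 601, 625 and 704 TPM in cultured cells. Its sorted level was lower than in bulk tumors by a log2 difference of -0.61 (limma adjusted p = 2.37e-05), close to the fold limit, and 5 of 28 alternatives put it under that limit, among them leaving out bulk sg495 replicate 2, sorted replicate 2 labeled sg492 or sorted sg495 replicate 1 (-0.58, -0.58 and -0.52). Fn1, which encodes fibronectin, was at 68.7, 84.6 and 103 TPM in bulk tumors, 54.5, 75.4 and 86.9 TPM after sorting and 13.6, 16.6 and 20.4 TPM in cultured cells. The bulk and sorted ranges of Fn1 overlapped, and the log2 difference of -0.25 (SE 0.10) did not pass the test (limma adjusted p = 0.0555). Fbln1, encoding fibulin 1, was at 51.7 to 72.3 TPM in bulk tumors and 61.0 to 85.7 TPM in sorted cells, a log2 difference of 0.21 that was under the fold limit.

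The remaining glycoproteins fell on sorting. Postn, encoding periostin, was at 37.8, 68.5 and 97.0 TPM in bulk tumors, 0.490, 0.700 and 1.42 TPM after sorting and 3.75, 6.76 and 8.35 TPM in cultured cells (-5.23 from bulk to sorted, SE 0.14). Cultured cells thus lay above sorted cells and below bulk tumors, with no overlap between the 3. Tenascin C (Tnc) was at 10.8 to 27.7 TPM in bulk tumors and at 0 in 4 of 6 sorted libraries (-4.18). Fbn1, the microfibril protein fibrillin 1, differed by -3.10, Fbln2 by -3.60, Thbs2 by -2.80 and Thbs1 by -3.12. Thbs1 and Thbs2 encode thrombospondins, and Thbs1 had the widest bulk range of them, 12.2 to 54.6 TPM, against 0.700 to 2.71 TPM in sorted cells.

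Among the lysyl oxidases, Lox and Loxl1 were lost on sorting while Loxl2 was not. Loxl2 was at 12.4, 16.3 and 20.8 TPM in bulk tumors, 7.98, 13.7 and 19.3 TPM after sorting and 2.99, 9.06 and 13.2 TPM in cultured cells. These ranges overlapped, and the log2 difference between sorted cells and bulk tumors of -0.27 (SE 0.14) did not pass the test (limma adjusted p = 0.128). Lox ran from 9.72 to 18.9 TPM in bulk tumors, was at 0 in 4 of 6 sorted libraries and was listed at 0 in every cultured library (-3.95). Loxl1 differed by -2.56, from a bulk median of 5.07 TPM. An antisense gene that overlaps Loxl2 (Gm27177) was at a mean of 1.04 TPM, so with the strand setting not given its low values are uncertain too.

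The membrane protease gene Mmp14 was at 79.8 TPM or more in every library of the 3 sample types, while Mmp2 and Mmp3 were lower. Mmp14, which activates the secreted gelatinase encoded by Mmp2, was at 113, 116 and 125 TPM in bulk tumors, 79.8, 93.9 and 104 TPM after sorting and 117, 128 and 135 TPM in cultured cells. Its difference between sorted cells and bulk tumors, -0.34 (SE 0.036, limma adjusted p = 6.75e-06), was larger than the spread between libraries and under the fold limit. Mmp2 was at 7.92 to 17.4 TPM in bulk tumors, 2.11 to 3.31 TPM in sorted cells and 2.27 to 2.95 TPM in cultured cells (-1.66 from bulk to sorted). Mmp3, the stromelysin 1 gene, was at 8.26 to 16.1 TPM in bulk tumors, at 0 in 5 of 6 sorted libraries and listed at 0 in every cultured library (-3.67).

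For the inhibitors Timp2 and Timp3 no difference between sorted cells and bulk tumors passed the test. Timp2, which also takes part in the activation of the Mmp2 product, was at 149, 170 and 203 TPM in bulk tumors, 116, 176 and 202 TPM after sorting and 185, 202 and 222 TPM in cultured cells (-0.07 from bulk to sorted, limma adjusted p = 0.415). Timp3, a matrix-bound inhibitor, was at 18.2, 23.0 and 27.9 TPM in bulk tumors, 17.9, 28.5 and 33.1 TPM after sorting and 10.02, 12.3 and 14.8 TPM in cultured cells (0.20, limma adjusted p = 0.0882). Timp1 was at 52.9, 62.9 and 65.7 TPM, 17.9, 20.1 and 20.5 TPM and 9.62, 13.4 and 15.1 TPM in the same order, and fell from bulk to sorted cells by 1.59 on the log2 scale (limma adjusted p = 1.05e-09). Only for Timp1 of these 3 did the bulk and sorted libraries not overlap.

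Of the fibroblast genes in the set, smooth muscle actin fell with the smallest p of the 37 tested. Acta2, the actin of smooth muscle and contractile fibroblasts, was at 20.7, 26.4 and 31.5 TPM in bulk tumors, at 0 in 4 of 6 sorted libraries and at no more than 0.100 TPM in the others, and listed at 0 in every cultured library (-4.74, SE 0.083, limma adjusted p = 4.56e-13). Pdgfra, a receptor of fibroblasts, was at 1.22 to 2.76 TPM in bulk tumors and 0.0600 to 0.770 TPM in sorted cells. Fap, encoding fibroblast activation protein, was at 0.670 to 2.63 TPM and at 0 to 0.140 TPM. Neither passed the filter of the fit, and for both genes every bulk library lay above every sorted library. Pdgfrb, the receptor of pericytes and fibroblasts, was at 5.99 to 8.46 TPM in bulk tumors, 1.5 to 2.61 TPM in sorted cells and 3.30 to 4.92 TPM in cultured cells (-1.38).

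Sorted cells were also set against cultured cells, which have no host cells. The sorted cells had grown in mice, had been digested and bead-depleted, and could hold remaining host cells. These differences from cultured cells cannot be told apart. The comparison shares the sorted libraries with that against bulk tumors. Of the 37 genes tested, 6 were higher in sorted cells, against 14.6% of all genes tested, and 3 were lower, against 8.99%. The share of members called was near the background in both directions, but the filter also counted the bulk tumors. Genes lost on sorting could pass it with means under 1 TPM in both sample types compared here, and none of them was called. The share and the median below therefore do not describe only the genes that these cells expressed. The median log2 difference was 0.07 for the 37 genes and 0.00 for all genes.

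**Figure D2:**
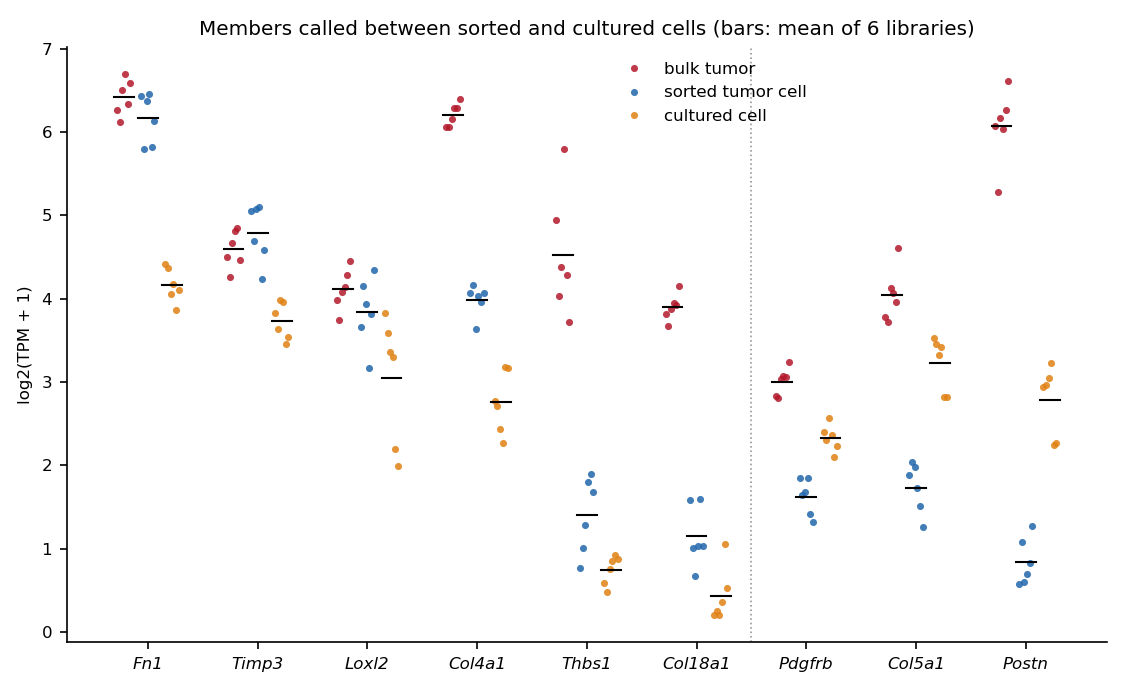
Levels on a log2(TPM + 1) axis of the 6 genes higher and, right of the dotted line, the 3 genes lower in sorted than in cultured cells, with bulk tumors beside them; points are libraries and bars the mean of 6 libraries. Sorted Fn1 lies with the bulk tumors and above cultured cells, and Postn is lowest in sorted cells.

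Fn1 had the largest difference of the 6. It was 54.5 to 86.9 TPM in sorted cells and 13.6 to 20.4 TPM in cultured cells, a log2 difference of 2.002 (SE 0.10, limma adjusted p = 4.28e-09). Col4a1 was higher by 1.23 (limma adjusted p = 7.17e-09) and Timp3 by 1.06 (limma adjusted p = 4.41e-07), and neither had a sorted library within its cultured range. Loxl2 was higher by 0.80 (limma adjusted p = 0.000221), with overlapping ranges, and with the control libraries alone by 0.20 (limma adjusted p = 0.442). Col18a1 was higher by 0.72, a call that ended with quantile normalization (0.27, limma adjusted p = 0.0758). Thbs1 was higher by 0.66 (limma adjusted p = 0.022), and 6 of 28 alternatives ended its call, among them the control libraries alone (0.35, limma adjusted p = 0.398), quantile normalization (0.24, limma adjusted p = 0.392) and leaving out sorted control replicate 2 (0.62) or sorted replicate 2 labeled sg492 (0.57).

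The 3 genes lower in sorted than in cultured cells were Postn, Col5a1 and Pdgfrb. Postn was at 0.490 to 1.42 TPM in sorted cells and 3.75 to 8.35 TPM in cultured cells (-1.94, SE 0.14, limma adjusted p = 8.92e-08). Col5a1 was at 1.40 to 3.10 TPM against 6.05 to 10.5 TPM (-1.49, limma adjusted p = 5.58e-08). Pdgfrb differed by -0.70 (limma adjusted p = 3.58e-06). None of the 3 had overlapping ranges, and all of them were highest in bulk tumors. Sparc (-0.45), Mmp14 (-0.45), Timp2 (-0.31), Timp1 (0.56), Col4a2 (0.56), Col15a1 (0.45), Col1a2 (0.48), Fbln1 (0.29), Col6a3 (0.40), Bgn (0.36) and Col12a1 (0.26) differed with limma adjusted p under 0.05 and stayed under the fold limit.

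Other matrix genes, taken from lists of known families, were read in the same fits. Of all genes tested there, 9.26% were lower and 4.31% higher in sorted cells than in bulk tumors. Against cultured cells 14.6% were higher and 8.99% lower. Of 30 other collagens 12 were tested, 2 were lower in sorted cells than in bulk tumors (Col8a1 -2.34 and Col5a3 -1.33) and 7 were higher than in cultured cells, with Col16a1 (1.61), Col11a2 (1.20) and Col9a3 (1.18) the largest. Of 15 laminins and other basement membrane genes 9 were tested, and 3 were lower than in bulk tumors, the laminin chain Lamb1 (-2.96) and the nidogens Nid2 (-2.91) and Nid1 (-1.59). Against cultured cells 2 of them were higher, the laminin chains Lama5 (0.79) and Lama4 (0.72), and Nid1 was lower (-0.63).

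Of 35 other glycoproteins and proteoglycans 21 were tested. Against bulk tumors 10 were lower, among them Tgfbi (-4.97), osteopontin (Spp1, -4.69) and Mfap5 (-3.95), and 1, the matricellular gene Cyr61, was higher (2.60). Against cultured cells 6 were higher, led by Cyr61 (4.21), Ctgf (2.44) and Fbln5 (2.14), and 2 were lower, Matn2 (-1.18) and Sdc1 (-0.60). Of 29 other proteases, inhibitors and crosslinkers 16 were tested. The macrophage elastase gene Mmp12 (-4.88), the transglutaminase Tgm2 (-3.33) and Mmp19 (-2.18) led the 8 that were lower than in bulk tumors, and Adamts1 was higher (0.99). The 4 that were higher than in cultured cells included Plau (1.93), which encodes urokinase, and Mmp23 (0.82).

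Receptors that bind matrix proteins were read as well. Of 21 integrins and other matrix receptors 12 were tested. By limma 0 of them differed between sorted cells and bulk tumors, against 13.6% of all genes tested. Their median log2 difference was -0.01. Against cultured cells 4 were higher, including Itga9 (1.04), Itga5 (0.91) and the collagen receptor Ddr2 (0.71), and 2 were lower, Itga6 (-2.07) and Itgb5 (-0.88). Of the 6 TGF-beta ligands and receptors Tgfb1 was lower than in bulk tumors (-0.96) and higher than in cultured cells (1.11), and Tgfbr2 was lower than in bulk tumors (-0.61).

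Within bulk tumors each guide was compared with control. In the sg495 tumors 35 of the 39 genes had a positive log2 difference, against 63.1% of all genes, with a median of 0.48 against 0.06 for all genes and of 0.31 without sg495 replicate 2. By limma 0 passed the test, against 0.0293% of genes tested. At an unadjusted p under 0.05 there were 26, against 15.7% of all genes. For 29 of the 39 both sg495 libraries lay above both controls, against 31.6% of all genes, and for 2 both lay below, against 14.4%. When the 18 libraries of all sample types shared 1 estimate of spread, 7 of the 37 genes tested in that fit were called higher, Col1a2 (limma adjusted p = 0.0188), Col5a2, Col6a1, Col6a2, Col14a1, Dcn and Fbn1, against 2.74% of all genes (361 higher, with 34 lower, where the fit within bulk tumors called 3 and 1).

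**Figure D3:**
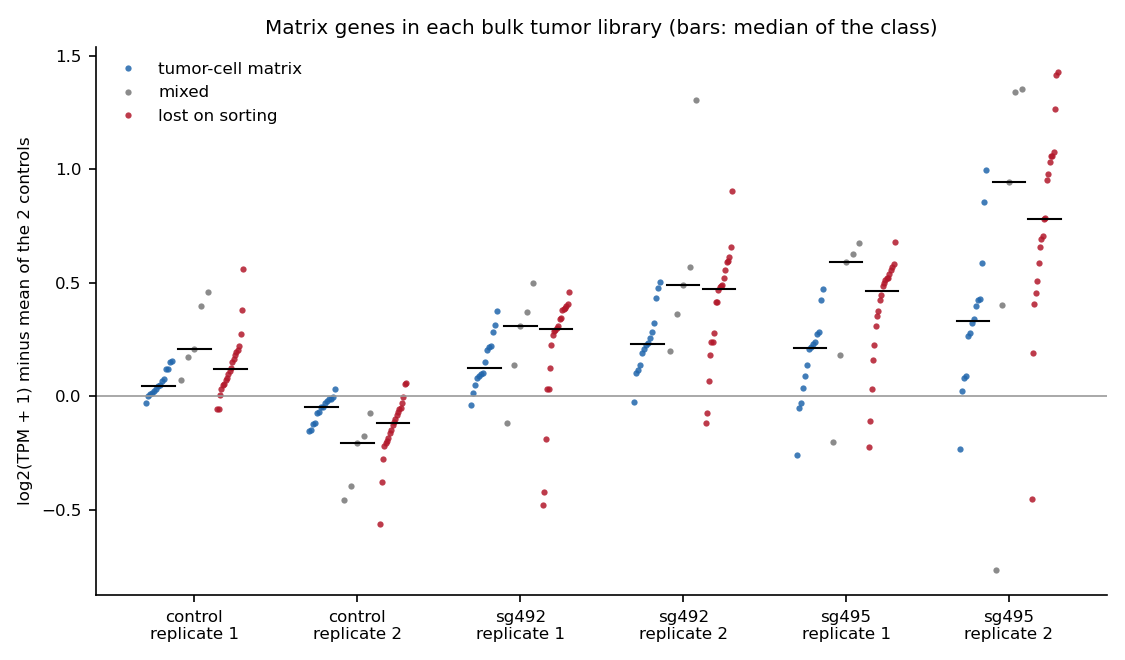
Log2(TPM + 1) of each gene in the 6 bulk tumor libraries minus the mean of the 2 controls, by class; points are genes and bars the median of the class. The medians of sg495 replicate 2 are 0.78 for the genes lost on sorting and 0.33 for the tumor-cell matrix genes.

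The values behind these counts rested in part on single libraries. Col3a1 was at 189 and 169 TPM in the bulk controls, 220 and 273 TPM for sg492 and 257 and 478 TPM for sg495 (log2 difference of sg495 to control 0.97, SE 0.28, limma adjusted p = 0.17). Col1a1 was at 92.2 and 72.2 TPM, 106 and 121 TPM and 127 and 208 TPM in the same order (0.98, SE 0.24, limma adjusted p = 0.129). For both genes every edited library lay above both controls, and sg495 replicate 2 stood apart as the highest. Over the 39 genes sg495 replicate 2 was the highest bulk library for 29 and control replicate 2 the lowest for 31. The same count over all genes was not made. Of the bulk libraries, sg495 replicate 2 also had the most genes at 1 TPM or more (13899) and control replicate 2 the fewest (13330).

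Bgn had the smallest p of the 39 (log2 difference 0.68, SE 0.16, limma adjusted p = 0.122), followed by Col1a2 (1.01) and Col6a3 (0.47), and without control replicate 1 it was called (0.90, limma adjusted p = 0.0491). Col14a1, the fibril-associated collagen XIV, had the largest difference among those at an unadjusted p under 0.05, 1.05 (limma adjusted p = 0.154). Acta2 went the other way, with a log2 difference of -0.34 (limma adjusted p = 0.283). The median over the 20 genes lost on sorting, relative to the control mean, was 0.46 and 0.78 in the sg495 libraries and 0.29 and 0.47 in the sg492 libraries. Over the 14 tumor-cell matrix genes it was 0.21 and 0.33 with sg495 and 0.13 and 0.23 with sg492.

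Markers of some other cells moved with these values. The summed leukocyte markers were 471 to 657 TPM in bulk controls, 723 to 887 TPM with sg492 and 978 to 1062 TPM with sg495. The 13 fibroblast markers outside the set summed to 233 to 235 TPM, 263 to 266 TPM and 253 to 296 TPM, and 11 of the 13 had a positive log2 difference with sg495 (median 0.60) and 12 with sg492 (median 0.20). The 6 skeletal muscle markers were all positive with sg495 (median 0.40), but only 1 of them with sg492 (median -0.03). Their sum was highest in sg495 replicate 2 (276 TPM), as for most matrix genes. It was lowest in control replicate 2 and nearly the same in sg492 replicate 1 (137 TPM each). Endothelial markers summed to 110 to 123 TPM in controls, 120 to 128 TPM with sg492 and 120 to 126 TPM with sg495. Mural markers summed to 131 to 152, 133 to 170 and 146 to 152 TPM in the same order. The part of these cells in the matrix values was not tested. None of the 13 fibroblast, 12 leukocyte, 9 endothelial and 8 mural markers was at a mean under 1 TPM in bulk tumors.

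The sg492 tumors share their control libraries with the sg495 tumors. There 0 of the 39 genes passed the test by limma, against 0% of all genes, and 4 had an unadjusted p under 0.05, against 8.3%. These were Fn1 (0.41), Col6a3 (0.40), Lox (0.51) and Col12a1 (0.38). The median log2 difference was 0.31 against 0.06 for all genes and 0.17 without control replicate 2, and for 28 of the 39 both sg492 libraries lay above both controls, against 31.1% of all genes.

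Within sorted tumor cells 17 of the 39 genes passed the filter. With sg495, 0 of them were called by limma, against 0.899% of genes tested, and 4 had an unadjusted p under 0.05, against 15.6%. Those 4 were Timp2 (-0.47, limma adjusted p = 0.164), Thbs1 (0.90), Timp3 (-0.46) and Mmp14 (-0.22). The median log2 difference was -0.08 against -0.04 for all genes. It was 0.04 without control replicate 1 and -0.22 without control replicate 2. Over all genes 78 were higher and 38 lower, and 79 and 19 with median-of-ratios scaling, but 3 and 1 without sg495 replicate 1 and 4 and 1 without sg495 replicate 2. Mitochondrial genes took 8.02% of the TPM in sg495 replicate 1 and 3.45 to 4.73% in the other sorted libraries. In the sorted libraries labeled sg492, 0 of the 17 were called, against 0.0388%, and 0 had an unadjusted p under 0.05, against 7.13%.

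In cultured cells 3 guide differences passed the test. Of the 16 genes tested 3 were lower with sg495, against 2.03% of genes tested, and 0 were higher, against 0.733%. Loxl2 was at 13.2 and 11 TPM in controls, 9.26 and 8.86 TPM for sg492 and 3.57 and 2.99 TPM for sg495, a log2 difference of sg495 to control of -1.61 (SE 0.12, limma adjusted p = 0.00192). Both sg495 libraries lay below the other 4, and none of the 16 alternatives ended this call.

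**Figure D4:**
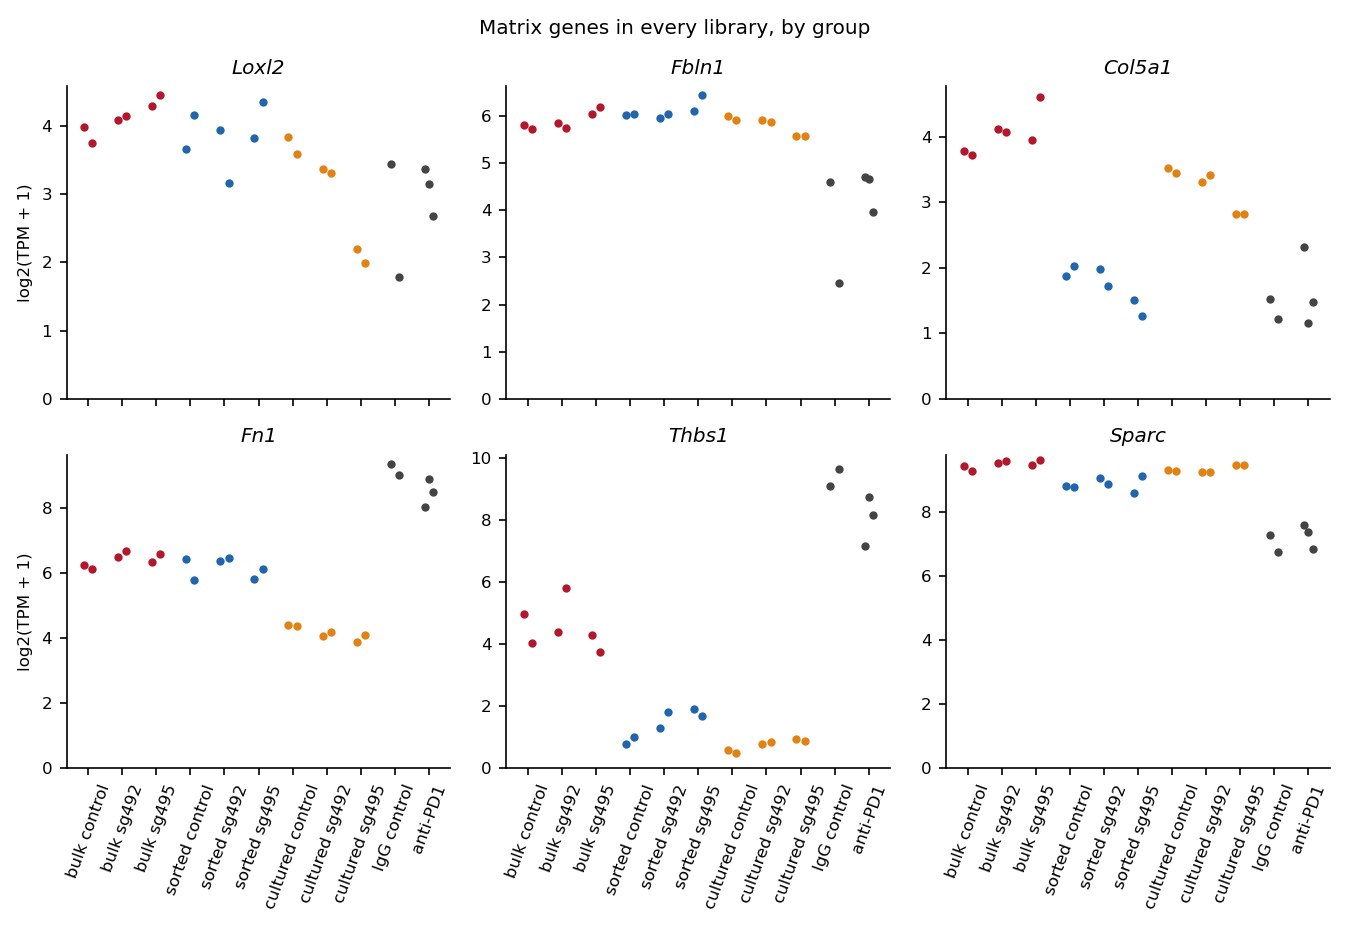
Levels of Loxl2, Fbln1, Col5a1, Fn1, Thbs1 and Sparc on a log2(TPM + 1) axis in the 11 groups, 1 point per library. Loxl2 is at 2.99 and 3.57 TPM in cultured sg495 cells and at 8.86 TPM or more in the other cultured libraries, and Fn1 and Thbs1 are highest in the IgG libraries.

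Col5a1 and Postn were the others. Col5a1 was at 10.5 and 9.95 TPM in cultured controls, 8.98 and 9.73 TPM for sg492 and 6.05 and 6.05 TPM for sg495 (-0.67, SE 0.088, limma adjusted p = 0.00869). Postn was at 6.69 and 6.83 TPM, 7.24 and 8.35 TPM and 3.75 and 3.80 TPM in the same order (-0.70, SE 0.11, limma adjusted p = 0.0135). For both genes the sg495 libraries lay below every other cultured library. The call for Postn was lost in 6 of 16 alternatives, among them leaving out any 1 of the control or sg495 libraries (limma adjusted p = 0.0683 to 0.0822). The call for Col5a1 was lost in 3 of 16, without control replicate 1, sg495 replicate 1 or sg495 replicate 2.

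Smaller differences under the fold limit were seen for Fbln1 (-0.38, limma adjusted p = 0.00904), Sparc (0.17, limma adjusted p = 0.0178) and Fn1 (-0.41, limma adjusted p = 0.0479). Col4a1 differed by 0.43 (limma adjusted p = 0.0532). It lies on chromosome 8, as do Col4a2, Mmp2 and Nr2f6, and the 645 genes of that chromosome tested had a median of -0.33 in this comparison. With that median subtracted, Col4a1 differed by 0.76 (limma adjusted p = 0.0133). The chromosome 8 median was also below 0 with sg495 in bulk tumors (-0.25) and in sorted cells (-0.34). With sg492 it was 0.03 in bulk tumors, 0.02 in sorted cells and 0.03 in cultured cells. With sg492, 0 of the 16 were called in cultured cells, against 0.05% of genes tested, and 5 had an unadjusted p under 0.05, against 10.5%. They were Col4a1 (-0.39), Loxl2 (-0.38), Fn1 (-0.28), Timp2 (0.14) and Timp3 (0.24). Of the other matrix genes Sparcl1 was lower (-0.75) and Ctgf higher (0.64) with sg495 in cultured cells.

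**Figure D5:**
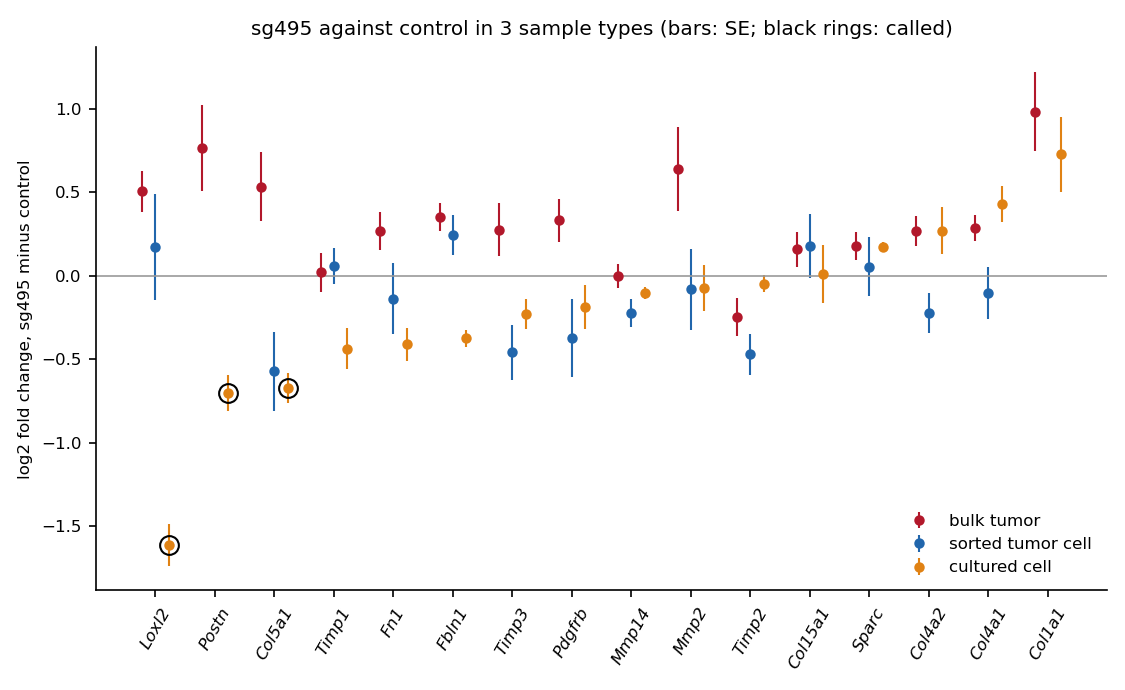
Log2 difference of sg495 to control for the 16 genes tested in cultured cells, shown by sample type; bars are the limma SE and black rings mark calls. The 3 ringed values, Loxl2, Col5a1 and Postn, are all in cultured cells and below 0.

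Whether the sg495 difference itself changed with the sample type was tested as an interaction. Between bulk tumors and sorted cells 0 of 37 genes were called by limma, against 0.122% of genes tested, and 15 had an unadjusted p under 0.05, against 16%. The smallest p was that of Col5a1 (1.11, SE 0.25, limma adjusted p = 0.0992), which was called without bulk sg495 replicate 1 (1.43, limma adjusted p = 0.0155). Over all genes 9 were higher and 7 lower. Median-of-ratios scaling gave 5 and 6, and quantile normalization 5 and 8.

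Between sorted and cultured cells 2 of 37 genes had a higher sg495 difference in sorted cells, against 1.86% of genes tested, and 0 a lower one, against 0.646%. For Loxl2 the difference of differences was 1.79 (SE 0.34, limma adjusted p = 0.0136). In sorted cells Loxl2 was at 11.6 and 16.8 TPM in controls, 14.3 and 7.98 TPM where the label is sg492, and 13.1 and 19.3 TPM for sg495 (0.17, SE 0.32, limma adjusted p = 0.832). In bulk tumors it was at 14.8 and 12.4 TPM, 15.9 and 16.7 TPM and 18.5 and 20.8 TPM (0.50, limma adjusted p = 0.127). Loxl2 was thus low with sg495 in cultured cells and within or above the control range in both tumor sample types.

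For Fbln1 the difference of differences was 0.62 (SE 0.13, limma adjusted p = 0.0238). In cultured cells it was at 62.8 and 59.5 TPM in controls, 59.3 and 57.2 TPM for sg492 and 46.7 and 47.0 TPM for sg495. In sorted cells it was at 63.7 and 64.7 TPM, 61.0 and 64.6 TPM and 68.0 and 85.7 TPM (0.25, limma adjusted p = 0.392). The sorted value rested on sg495 replicate 2, without which the difference of differences was 0.46 and under the fold limit.

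The IgG control and anti-PD1 libraries were made of a different mix of cells. Their 9 melanocyte markers summed to 1700 to 4015 TPM with IgG and 3416 to 5204 TPM with anti-PD1, against 15624 to 16676 TPM in bulk tumors, and the 12 leukocyte markers to 10402 to 11575 and 7239 to 10192 TPM. The genes lost on sorting summed to 24.2 to 54.1 TPM with IgG and to 27.6 to 109 TPM with anti-PD1. Fn1 and Thbs1 were the highest of the 39 genes in the IgG libraries. Fn1 was at 661 and 524 TPM with IgG and 263, 474 and 362 TPM with anti-PD1. Thbs1 was at 538 and 789 TPM with IgG and 141, 420 and 284 TPM with anti-PD1. For both genes the 2 IgG libraries lay above all 3 anti-PD1 libraries.

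Of the 31 genes tested 0 passed the test by limma, against 0% of genes tested, and 3 had an unadjusted p under 0.05, against 7.18%. These were Thbs1 (-1.34, SE 0.44), Fn1 (-0.72, SE 0.28) and Col3a1 (0.92, SE 0.39), each with a limma adjusted p of 0.608. The median log2 difference of anti-PD1 to IgG was 0.43 against -0.04 for all genes, and 24 of the 31 were positive, against 46.5% of all genes. Without anti-PD1 replicate 1, in which mitochondrial genes took 21.9% of the TPM, the median was 0.14 with 16 of 27 positive. It was 0.27 without IgG replicate 1 and 0.67 without anti-PD1 replicate 3. Sparc, the highest of the 39 genes in the 3 other sample types, was at 154 and 107 TPM with IgG and 193, 163 and 113 TPM with anti-PD1, with overlapping values.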

How the data were processed

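RNA-seq (poly(A), directional, single-end) was run on 23 libraries. Per the submitters' processing notes the authors used cutadapt 2.3, STAR 2.7.0d, RSEM 1.3.1 and the mm10 build, and deposited TPM values per gene with 2 decimals, which carry no depth, so the depth of each library is unknown and no counting interval is given. Groups came from the labels. The authors' test, on counts, was not rerun. From the TPM values log2(TPM + 1) was computed (pseudocount 1), genes with a mean under 1 TPM over the libraries of a fit were left out, and limma 3.58.1 (lmFit, then eBayes with a trend) in R 4.3.3 was fitted to all genes, with 9 group means for the 18 libraries of the 3 sample types and with 3 group means within a sample type. A gene was called at a two-sided Benjamini-Hochberg adjusted p under 0.05 over all genes tested and a fold of at least 1.5. The scripts were tested on simulated data. Groups of 2 against 2 libraries allow no exact permutation p below 0.333. Positions came from GRCm38 and promoter windows from RefSeq on GRCm38.p6. All 39 genes may be named, and from other lists the called genes with the largest differences (at most 3 per direction), of which 1 is not reported here. The 39 genes and the lists were chosen with earlier results of these data known. Alternatives changed the scaling, pseudocount, filter, fold limit, libraries, replicate block and chromosome 8 centering.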

Additional observations from a re-analysis of the deposited data

Results flagged for a closer look

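Of 37 genes tested 2 had a sg495 difference in sorted tumor cells that differed from that in cultured cells by an interaction test in limma. For Loxl2 the sorted difference exceeded the cultured one by 1.79 on the log2 scale (limma adjusted p = 0.0136), and the call ended without cultured control replicate 1 (1.66, limma adjusted p = 0.0569), without cultured sg495 replicate 2 (1.69, limma adjusted p = 0.0663) and without sorted control replicate 1 (1.54, limma adjusted p = 0.0579). For Fbln1 it was 0.62 (limma adjusted p = 0.0238), and 7 of 27 alternatives, each leaving out 1 library, ended the call, with values from 0.46 to 0.66. The 7 libraries were both cultured controls, both cultured sg495, both sorted controls and sorted sg495 replicate 2. Without that last library the value of Fbln1 was 0.46 (limma adjusted p = 0.0378), under the fold limit.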

How the results depend on the processing

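No called difference changed sign under any alternative run. Of the counts of called genes 412 of 434 were equal to the reported count or within 1.5 times of it. Most of these were counts of 0 that stayed at 0, so this share says little about the counts above 0. For the single genes called, 1179 of 1211 values kept their direction and call, and 32 lost the call in the same direction. Without the fold limit, 1 gene was higher and 14 genes were higher in the comparisons of sorted cells with bulk tumors and with cultured cells, 6 were lower than in cultured cells, and in cultured cells 1 was higher and 5 lower with sg495, since only that limit differed. A pseudocount of 0.1 gave 14 genes higher in sorted than in cultured cells. With 1 estimate of spread from all 18 libraries 7 genes were higher with sg495 in bulk tumors, while calls over all genes went from 3 higher and 1 lower to 361 and 34. Centering chromosome 8 gave 1 gene higher with sg495 in cultured cells (Col4a1), and Col4a1, Col4a2 and Mmp2 had log2 differences of 0.27, 0.14 and 0.29 in sorted cells, where the values without it are -0.10, -0.22 and -0.08 and none is called. The median of the 17 genes there went from -0.08 to 0.06. The cause of the changes with pseudocount and spread was not tested.

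Leaving out 1 library at a time gave 30 to 32 genes lower than in bulk tumors, 5 to 8 higher and 3 lower than in cultured cells, 0 to 1 higher with sg495 in bulk tumors, 1 to 3 lower with sg495 in cultured cells, 0 to 1 for the interaction of bulk and sorted, and 0 to 2 for that of sorted and cultured. The single genes above 0 in bulk tumors and in the first interaction were Bgn without bulk control replicate 1 and Col5a1 without bulk sg495 replicate 1. A group left with 1 library was assumed to vary like the other groups. For the 3 lower genes in cultured cells the count of 1 came without control replicate 1 or either sg495 library. For the interaction of sorted and cultured the count of 0 came without cultured control replicate 1, cultured sg495 replicate 2 or sorted control replicate 1.

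The replicate block gave 1 gene higher (Mmp3) and 1 lower (Thbs1) with anti-PD1, with 208 higher and 306 lower over all genes against 0 without it, and left the other counts of called matrix genes as they were. Over all genes it called 67 higher and 12 lower for sg495 in sorted cells, and 6 and 6 for the interaction of bulk and sorted. The libraries share only a number, and the deviations of same-numbered libraries from their group means correlated at r from -0.126 to 0.0851 across genes. The crossed replicate block for sg492 in bulk tumors, chosen after seeing the data, called 0 genes in both directions. With control libraries alone the share of the bulk level kept was 38.96% for Pdgfrb, 33.9% for Col4a2, 31.6% for Mmp2, 24.9% for Col4a1 and 23.2% for Col5a1, and it was lower for Thbs1 (3.78%), Fap (0.909%), Bgn (0.165%) and Tnc (0.0336%). Since TPM carry no depth, a level near 0 cannot be given a limit.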
